A study of Mus musculus with 140 samples.

Results

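The data described here are the whole-kidney libraries taken 24 h after surgery in a mouse study of sepsis: 4 mice after cecal ligation and puncture (CLP), in which gut bacteria leak into the abdomen, and 4 sham-operated mice. They were chosen by their labels (whole kidney, 24 h, CLP sepsis or Sham-operated) and are 8 of the 140 libraries in the series. All 8 mice were wild-type (WT) male C57BL6/OlaHsd mice, and each library is a separate biological replicate by its label. The series compares sepsis with sham surgery in whole kidney and in 4 laser-microdissected microvascular compartments, asking how sepsis alters gene expression in the renal microvasculature during acute kidney injury. Whole kidney was sampled at 4, 24 and 72 h after surgery and in healthy mice, 4 mice per group, 28 libraries in all. The values are read counts per gene from a 3′ tag sequencing kit (Lexogen QuantSeq), shown as CPM (counts scaled to a common library size, here by edgeR's TMM method).

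The kidney cortex is mostly proximal tubule, the segment that reclaims filtered phosphate, glucose, amino acids and protein and that burns fatty acids for energy. In sepsis, cytokines such as interleukin 1, tumour necrosis factor and interleukin 6 reach the tubule from the blood, and the transcription factors NF-κB, STAT3 and C/EBP drive acute-phase genes such as serum amyloid A, lipocalin 2 and the fibrinogen chains. Leukocytes also enter the tissue, and whole-kidney RNA carries their transcripts beside those of the tubule, glomerulus and vessels.

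Library totals at 24 h lay between 6202580 and 10373287 counts. P-values below measure the spread between mice within groups, estimated over all 28 whole-kidney libraries. The libraries were checked against kidney markers. The lowest of the 8 values was 91.1 CPM for the proximal tubule gene Lrp2, 2346 CPM for the loop gene Umod, 217 CPM for the distal gene Slc12a3 and 111 CPM for the collecting duct gene Aqp2. CLP replicate 4 stood apart. Over the 8286 genes averaging 10 CPM or more, its log2 CPM correlated with the other CLP libraries at 0.817 to 0.928, while CLP replicates 2 and 3 correlated at 0.974. Its share of mitochondrially encoded counts was 6.49%, against 9.71 to 11.6% in the other 7 libraries. CLP replicate 1 lay closest to the sham mice. Among called genes, it was the CLP mouse nearest to the sham mean for 46.4%, and CLP replicate 4 was the farthest for 48.5%. Counts are therefore given with and without CLP replicate 4 where it stands out, and n is 4 against 4 throughout.

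At 24 h, 789 of 14936 tested genes (5.28%) differed between CLP and sham mice by edgeR's quasi-likelihood test at an adjusted p under 0.05. Of these, 454 (3.04%) were higher and 335 (2.24%) lower in CLP mice. The median log2 fold change over all tested genes was 0.024. The values of the 4 CLP mice did not overlap those of the 4 sham mice for 1218 genes (8.15%), lying above for 615 (4.12%) and below for 603 (4.04%). The count of called genes was between 572 and 1012 when any 1 of the 8 libraries was left out, and 621 without CLP replicate 4. It fell to 295 when the 8 libraries were fitted without the other 20 whole-kidney libraries. That fit has fewer residual degrees of freedom and takes the spread from the 24 h mice alone. Which of these lowered the count was not tested. Below, each gene list is described by how many of its tested members rose or fell. These counts are to be set beside the 3.04% higher and 2.24% lower of all tested genes. The median log2 fold change of a list is to be set beside 0.024. The filter keeps a gene with enough counts in as many libraries as a group holds. A gene nearly absent from sham mice could therefore be tested because CLP mice held it, which favours rises among the tested members. A gene said to rise or fall by a value did so on the log2 scale. Of 143 called genes followed one by one, 45 lost their call with the 8 libraries fitted alone. They include Saa1, Fgb, Hp, C1ra, Entpd1, Nfkbiz, Tnfrsf1a, Il13ra1, Plin2 and Hmgcs1. Acmsd, Mt1, Slc39a10, Esm1, Edn1, Mfsd2a, Tmem207 and Syn3 are also among them. The genes just named kept their call when any 1 library was left out.

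**Figure D1:**
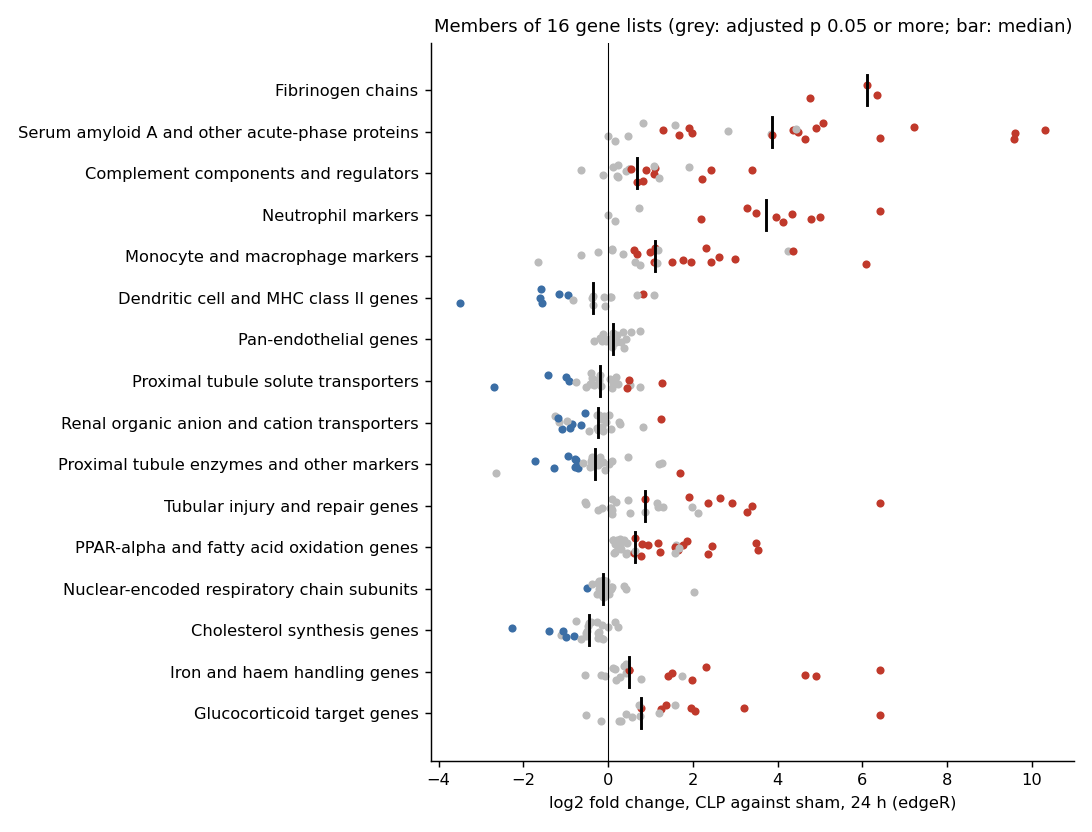
Each point is a tested member of a gene list, placed on the horizontal axis at its log2 fold change in CLP against sham mice at 24 h. Red points rose and blue points fell at an adjusted p under 0.05, grey points did not pass, and the black bar is the list's median. A gene with no count in 1 group is drawn at the bound set by 3 counts per library. Acute-phase, neutrophil, and PPAR-alpha and fatty acid oxidation genes lie to the right, and cholesterol synthesis and MHC class II genes to the left.

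Most genes of largest increase coded for acute-phase proteins, which the liver secretes in quantity during inflammation and which the injured tubule can also express. The 12 with the largest log2 fold change were Saa1, Saa3, Saa2, Lcn2, Fgb, Fgg, Cxcl13, Lrg1, Hp, Fga, Saa4 and Serpina3n (taken among genes averaging 5 CPM or more whose groups did not overlap). The 300 bases around the transcription start (250 before and 50 after) were searched on both strands for CTGGGAA, the core of the interleukin 6 response element bound by STAT3, and for TTGCNNAA, a C/EBP site. The RefSeq promoter table (build GRCm38.p6) held 11 of the 12 genes, Hp being the exception. Of these, 4 held CTGGGAA and 8 held TTGCNNAA, and 10 held at least 1 of them. Over all 32851 promoters in that table, 11.1% held CTGGGAA, 10.8% held TTGCNNAA and 20.7% held either. These letter matches are a description of the sequence only, and binding was not measured.

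The promoters of the 3 fibrinogen chains and of Lrg1, Saa3 and Lcn2 are printed, the first as a family of 1 complex and the others as further acute-phase genes whose values follow. Each is written 5′ to 3′ along the gene's strand in lower case, with matches to either motif on either strand in capitals. They lie at chr3:83025903-83026202 (plus strand) for Fga, chr3:83049814-83050113 (minus) for Fgb, chr3:83007474-83007773 (plus) for Fgg, chr17:56121897-56122196 (minus) for Lrg1, chr7:46715627-46715926 (minus) for Saa3 and chr2:32387690-32387989 (minus) for Lcn2.
Fga: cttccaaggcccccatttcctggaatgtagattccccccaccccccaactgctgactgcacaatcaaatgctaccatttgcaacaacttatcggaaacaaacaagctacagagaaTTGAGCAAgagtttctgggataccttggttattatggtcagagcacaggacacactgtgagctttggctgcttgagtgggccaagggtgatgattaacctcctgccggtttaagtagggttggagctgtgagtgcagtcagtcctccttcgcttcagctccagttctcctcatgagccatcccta
Fgb: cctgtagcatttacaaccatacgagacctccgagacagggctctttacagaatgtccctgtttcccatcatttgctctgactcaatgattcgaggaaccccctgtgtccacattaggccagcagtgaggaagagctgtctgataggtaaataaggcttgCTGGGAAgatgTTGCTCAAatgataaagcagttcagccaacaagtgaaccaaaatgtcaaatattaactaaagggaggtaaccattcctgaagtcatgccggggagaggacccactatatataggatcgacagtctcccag
Fgg: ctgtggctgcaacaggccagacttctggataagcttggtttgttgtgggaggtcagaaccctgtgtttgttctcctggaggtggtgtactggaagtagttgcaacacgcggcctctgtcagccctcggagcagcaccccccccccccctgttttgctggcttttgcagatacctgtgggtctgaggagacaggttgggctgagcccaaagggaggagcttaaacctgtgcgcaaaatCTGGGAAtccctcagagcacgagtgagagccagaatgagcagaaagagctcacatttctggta
Lrg1: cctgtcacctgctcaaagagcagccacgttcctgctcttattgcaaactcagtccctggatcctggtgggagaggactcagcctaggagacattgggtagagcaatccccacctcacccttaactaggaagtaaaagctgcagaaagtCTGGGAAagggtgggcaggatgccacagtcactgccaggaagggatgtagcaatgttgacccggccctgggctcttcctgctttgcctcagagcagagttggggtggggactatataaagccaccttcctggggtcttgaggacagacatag
Saa3: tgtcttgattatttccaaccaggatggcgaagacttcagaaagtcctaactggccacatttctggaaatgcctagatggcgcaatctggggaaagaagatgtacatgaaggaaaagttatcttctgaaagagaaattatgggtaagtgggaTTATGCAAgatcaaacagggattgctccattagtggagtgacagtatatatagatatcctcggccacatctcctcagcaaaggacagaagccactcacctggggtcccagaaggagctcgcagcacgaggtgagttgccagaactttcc
Lcn2: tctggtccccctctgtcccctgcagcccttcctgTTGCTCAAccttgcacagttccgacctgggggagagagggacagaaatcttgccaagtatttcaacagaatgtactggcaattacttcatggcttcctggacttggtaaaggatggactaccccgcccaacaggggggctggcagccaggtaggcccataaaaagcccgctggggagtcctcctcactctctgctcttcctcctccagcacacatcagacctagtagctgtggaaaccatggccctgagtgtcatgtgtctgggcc
In Fgb the CTGGGAA match ended 4 bases before a TTGCTCAA match. Fgg and Lrg1 held CTGGGAA alone, and Fga, Saa3 and Lcn2 held a C/EBP match alone.

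All 3 fibrinogen chains rose together. Fibrinogen is the soluble precursor of fibrin, built from the products of Fga, Fgb and Fgg, which lie side by side on chromosome 3 (Fgg at chr3:83007724-83015049, Fga at chr3:83026076-83033627 and Fgb at chr3:83040141-83049863, GENCODE M21, GRCm38). Fga was at 11, 12.6, 18.6 and 21.9 CPM in sham replicates 1 to 4 and at 105, 337, 379.5 and 921 CPM in CLP replicates 1 to 4. Fgg was at 6.26, 10.7, 8.29 and 8.97 CPM in the sham mice and 140.3, 436, 485 and 1289 CPM in the CLP mice. Fgb was at 1.81, 1.85, 2.33 and 1.28 CPM in the sham mice and 6.69, 98.7, 84.5 and 417 CPM in the CLP mice. For all 3 chains the groups did not overlap, CLP replicate 1 was the lowest CLP mouse and CLP replicate 4 the highest. The rises were 4.76 ± 0.51 for Fga, 6.10 ± 0.72 for Fgg and 6.36 ± 0.84 for Fgb (log2 fold change ± SE), with adjusted p of 1.80e-06, 6.96e-06 and 3.03e-05. Each SE in the text is the size of the log2 fold change divided by the square root of the test's F statistic. Without CLP replicate 4 the 3 chains still passed, and their median log2 fold change was 5.10 in place of 6.10. Fgb no longer passed when the 8 libraries were fitted alone. In the healthy mice the means were 19.5 CPM for Fga, 6.07 CPM for Fgg and 3.62 CPM for Fgb.

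Of 23 tested serum amyloid A and other acute-phase genes, 15 rose and none fell, with a median log2 fold change of 3.86, and 14 to 17 rose when any 1 library was left out. Saa1, an apolipoprotein of the acute phase, had no count in any sham mouse and 22.4, 529, 258 and 978 CPM in the CLP mice. Against a floor of 3 counts per sham library it was at least 1280-fold higher. Saa1 no longer passed when the 8 libraries were fitted alone, and nor did Hp, described below. Saa1 and Saa2 are near-identical copies, so reads may have been split between them. Saa3, the form made outside the liver, was at 3.01, 0, 0.708 and 0.256 CPM in sham and 401, 1243, 800.4 and 693 CPM in CLP mice (log2 fold change 9.62 ± 0.87, adjusted p = 2.30e-07). Here CLP replicate 2, not replicate 4, was the highest. Lcn2, the iron-sequestering lipocalin that marks tubular injury, was at 4.82, 2.9, 4.85 and 3.33 CPM in sham and 148, 397, 193 and 643 CPM in CLP mice (log2 fold change 6.43 ± 0.74, adjusted p = 4.67e-06). Its lowest and highest CLP mice were replicates 1 and 4. Lrg1, a leucine-rich glycoprotein of the acute phase, went from 9.28, 13.6, 6.37 and 7.43 CPM to 47.2, 235, 219 and 733 CPM, with no overlap (log2 fold change 5.07 ± 0.64, adjusted p = 1.48e-05). Hp, the haemoglobin scavenger haptoglobin, was at 12.3, 22.1, 1.62 and 2.95 CPM in sham and 86.4, 518, 149.5 and 415 CPM in CLP mice, and its sham values were the more spread (log2 fold change 4.91 ± 0.92, adjusted p = 0.00165). Smaller rises were those of Cp, the copper-carrying ferroxidase ceruloplasmin (log2 fold change 1.97 ± 0.23, adjusted p = 1.27e-06), and of Lbp, which presents bacterial lipopolysaccharide to its receptor (log2 fold change 1.91 ± 0.26, adjusted p = 4.78e-06).

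Of the 21 complement genes tested, 9 rose and none fell (7 to 9 with any 1 library left out), with a median of 0.69. C3, the central component of the cascade, was at 43, 67.4, 43.2 and 33.5 CPM in the sham mice and 171, 658, 403 and 727 CPM in the CLP mice. The lowest CLP mouse, replicate 1, lay well above the highest sham mouse, and the log2 fold change was 3.39 ± 0.41 (adjusted p = 8.67e-06). C4b of the classical pathway was at 6.02, 6.37, 3.44 and 3.59 CPM in sham and 11.1, 34.9, 20.2 and 24.7 CPM in CLP mice (log2 fold change 2.23 ± 0.37, adjusted p = 0.000167). C3ar1, the receptor for the C3a fragment, which is found on myeloid cells, was at 3.49, 5.56, 4.14 and 4.74 CPM in sham and 28.6, 24.1, 22 and 21.6 CPM in CLP mice (log2 fold change 2.42 ± 0.27, adjusted p = 2.30e-07). C1qa and C1qb, made chiefly by macrophages, rose by 1.09 and 1.11 (adjusted p = 0.000883 and 0.000419), and C1ra by 0.89 (adjusted p = 0.00271).

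Genes of interleukin 6 and STAT3 signalling rose in 6 of 18 tested, with none lower (4 to 5 with any 1 library left out). Stat3 itself was at 107, 116, 101 and 137 CPM in sham and 155, 175, 206 and 293 CPM in CLP mice (log2 fold change 0.84 ± 0.17, adjusted p = 0.00191). Socs3, the feedback inhibitor of the receptor, had a log2 fold change of 3.08 (adjusted p = 0.00262) with CLP values of 15.2, 9.97, 6.17 and 2.25 CPM, lowest in replicate 4. Cebpd, the transcription factor C/EBP delta, was at 6.26, 8.46, 9.6 and 7.95 CPM in sham and 26, 28.4, 21.4 and 34.1 CPM in CLP mice (log2 fold change 1.76 ± 0.21, adjusted p = 5.39e-07). Cebpb and Il6ra passed at 0.0237 and 0.0458, but Cebpb was lost without sham replicate 1 or 4 or CLP replicate 4, and Il6ra in each of the 8 fits that left out 1 library. The shared signalling subunit Il6st did not pass (log2 fold change 0.11, adjusted p = 0.712).

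Of the NF-κB subunits and feedback targets, 4 of 18 rose and none fell, and 2 did without sham replicate 3, CLP replicate 2 or CLP replicate 3. At 4 h 12 of the 18 had risen (background 1.69% of genes higher at 4 h). Nfkbia, which codes for the inhibitor IκBα, was at 106, 119, 132 and 137 CPM in sham and 191, 250.4, 193 and 208 CPM in CLP mice (log2 fold change 0.77 ± 0.16, adjusted p = 0.00186), and Nfkbiz rose by 1.17 (adjusted p = 0.00167). Of the AP-1 and other immediate early genes, 4 of 17 rose at 24 h and 11 at 4 h. Without CLP replicate 4, 2 of those 17 passed at 24 h, and without sham replicate 2 or 3, 1 did. Junb, an AP-1 subunit, rose by 1.24 (adjusted p = 0.0135) but was lost without CLP replicate 2. Of 33 interferon-stimulated genes, 3 rose at 24 h and 11 at 4 h. Gbp7, a guanylate-binding protein, was the member of smallest adjusted p (log2 fold change 0.98 ± 0.18, adjusted p = 0.000522). The count at 24 h was 1 without sham replicate 1, 2 or 3 or CLP replicate 2.

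Outside fibrinogen, 2 of 13 procoagulant and platelet factors, 2 of 10 anticoagulant genes and 2 of 10 fibrinolysis genes changed, where 5.28% of all tested genes did. Of the 13 procoagulant and platelet factors, F13a1, the clot-crosslinking factor XIII A chain that macrophages also carry, rose (log2 fold change 1.77 ± 0.39, adjusted p = 0.00415). Tbxas1, thromboxane synthase, fell (log2 fold change -0.90 ± 0.24, adjusted p = 0.0198), but it lost its call without sham replicate 3 or 4 or CLP replicate 1, 3 or 4. F3, tissue factor, was at 0.241, 0.116, 0.101 and 0.897 CPM in sham and 1.27, 0.939, 0.167 and 0.421 CPM in CLP mice and did not pass (log2 fold change 1.12, adjusted p = 0.661), and neither did Vwf (log2 fold change 0.76, adjusted p = 0.505). The anticoagulant genes that rose were Entpd1, the ectonucleotidase CD39 (log2 fold change 1.63 ± 0.34, adjusted p = 0.00215), and the thrombin inhibitor Serpine2 (log2 fold change 0.90 ± 0.26, adjusted p = 0.041), which was lost without sham replicate 1, 2, 3 or 4 or CLP replicate 2 or 4. Thbd, thrombomodulin, was at 16.4, 11, 12.1 and 11.2 CPM in sham and 22.7, 16, 21.2 and 18 CPM in CLP mice, overlapping at sham replicate 1, with an adjusted p of 0.058. Procr, the endothelial protein C receptor, did not pass (log2 fold change 0.70, adjusted p = 0.552). Of the fibrinolysis genes, S100a10, a plasminogen receptor subunit, rose (log2 fold change 0.93 ± 0.14, adjusted p = 2.67e-05) and Serpinf2, the plasmin inhibitor α2-antiplasmin, fell (log2 fold change -1.33 ± 0.17, adjusted p = 2.10e-06). Plat, tissue plasminogen activator, did not pass (log2 fold change 1.56, adjusted p = 0.283), and its CLP values were 21.2, 4.81, 2.17 and 3.93 CPM.

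Of 33 listed CXC and CC chemokines 24 had enough counts to be tested, and of these 10 rose and none fell. The count was 3 without sham replicate 4, 4 without sham replicate 3, 5 without sham replicate 1 or 2 or CLP replicate 2, and 6 without CLP replicate 3. Cxcl13, which attracts B cells, went from 0.361, 0, 0.303 and 0 CPM to 6.81, 8.33, 9.85 and 14.7 CPM (adjusted p = 8.15e-05). The neutrophil attractant Cxcl1 was at 0.843, 0.463, 0.303 and 0.384 CPM in sham and 3.0, 2.7, 3.84 and 2.95 CPM in CLP mice (log2 fold change 2.62 ± 0.60, adjusted p = 0.00733). Cxcl12, which retains bone marrow-derived cells, did not pass (log2 fold change -0.28, adjusted p = 0.484), and in the CLP mice it was at 185, 142, 106 and 74.4 CPM. Of 22 cytokine and receptor genes, 6 rose and 1 fell. Il1b was at 4.46, 0.926, 1.82 and 2.95 CPM in sham and 10.5, 13, 10 and 7.86 CPM in CLP mice (log2 fold change 2.03 ± 0.41, adjusted p = 0.00151). Il1rn, the natural antagonist of the interleukin 1 receptor, went from 0.12, 0, 0.607 and 0.256 to 3.23, 4.69, 4.51 and 3.23 CPM (adjusted p = 0.000162). Tnfrsf1a, the main tumour necrosis factor receptor, rose (log2 fold change 0.65 ± 0.14, adjusted p = 0.0032) and Il13ra1 fell (log2 fold change -0.70 ± 0.16, adjusted p = 0.00665). Of 13 leukocyte adhesion molecules, Icam1 and Vcam1 rose (4 genes without CLP replicate 1 and 1 without CLP replicate 2). Icam1 was at 16.1, 15.9, 18.5 and 15.4 CPM in sham and 30.7, 46.1, 47.9 and 44.9 CPM in CLP mice (log2 fold change 1.36 ± 0.27, adjusted p = 0.00156), and Vcam1 was lost without sham replicate 2, CLP replicate 2 or CLP replicate 4 (log2 fold change 0.87 ± 0.22, adjusted p = 0.0158).

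Neutrophil transcripts rose in 9 of 12 tested markers, also in each fit that left out 1 library. The other markers of the 20 listed had too few counts to be tested. Markers nearly absent from sham mice, such as Ngp, could be tested only because CLP mice held counts. The share of tested markers that rose was therefore partly set by the filter. The median was 3.81 (3.73 with genes absent from a group at their bound). In a bulk sample a change in the number of cells of a type and a change in RNA per cell cannot be told apart. S100a8, a subunit of the calprotectin complex stored in neutrophils, was at 3.73, 4.52, 1.92 and 5.38 CPM in sham and 72.1, 77.4, 71.4 and 49.7 CPM in CLP mice. Itgam, the integrin CD11b, was at 1.21, 1.16, 2.63 and 1.28 CPM in sham and 20.5, 18.3, 15.2 and 18 CPM in CLP mice (log2 fold change 3.49 ± 0.40, adjusted p = 5.27e-07). Ngp, a granule protein made in immature neutrophils, had no count in any sham mouse and 2.77, 7.16, 6.34 and 5.62 CPM in the CLP mice, at least 15.7-fold higher against the same floor. The other granule genes Mpo and Elane, made by precursors, were at 0 in 8 and 7 of the 8 libraries, and Ly6g was at 0 in 5. The formyl peptide receptor gene Fpr2, held in the list of Toll-like and related receptors, was at 0.964, 0.347, 0.303 and 0.641 CPM in the sham mice and 9.81, 9.62, 12 and 13.9 CPM in the CLP mice (log2 fold change 4.32 ± 0.46, adjusted p = 1.68e-07). The summed level of 7 defining neutrophil markers was 132, 145, 113 and 84.4 CPM in CLP replicates 1 to 4. It was lowest in replicate 4, and 6.63 to 13.6 CPM in sham mice. Most of this sum was S100a8 and S100a9, which ranged over 49.7 to 77.4 and 26.4 to 55.7 CPM in CLP mice.

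Of 25 monocyte and macrophage markers, 14 rose and none fell (11 to 14 with any 1 library left out), with a median of 1.11. Ms4a6c, a marker of monocytes, had the smallest adjusted p in the list, at 1.93, 3.24, 2.63 and 2.69 CPM in sham and 13, 19.8, 13.3 and 18.1 CPM in CLP mice (log2 fold change 2.61 ± 0.28, adjusted p = 1.88e-07). The scavenger receptor gene Msr1 went from 0.361, 0.695, 0.303 and 0 to 4.38, 10.6, 6.84 and 7.58 CPM (adjusted p = 2.00e-05), and Fcgr1, the high-affinity IgG receptor, rose by 2.43 (adjusted p = 0.000668). Cx3cr1, the fractalkine receptor of resident macrophages and patrolling monocytes, was at 12.8, 14.7, 19.1 and 14.3 CPM in sham and 31, 32.6, 30 and 26.7 CPM in CLP mice (log2 fold change 0.98 ± 0.19, adjusted p = 0.000894). Csf1r, a growth factor receptor of macrophages, did not pass (log2 fold change -0.25, adjusted p = 0.702) and overlapped between groups. None of 13 lymphocyte markers passed by edgeR or by DESeq2, 2 had an unadjusted p under 0.05, and Cd79a was at 0 in 7 of 8 libraries. The mean shift of these markers was 1.19 on the log2 scale in CLP replicate 4, against -0.61 to -0.082 in the other CLP mice.

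Genes of antigen presentation by MHC class II moved the other way. Of 17 dendritic cell and MHC class II genes, 6 fell and 1 rose (5 to 6 fell with any 1 library left out). H2-Aa, the class II alpha chain, was at 74.9, 106, 94.4 and 127 CPM in sham and 34.7, 32.9, 29.4 and 37.2 CPM in CLP mice with a wide gap between the groups. Its log2 fold change was -1.58 ± 0.15 (adjusted p = 2.47e-08). H2-Ab1 and H2-Eb1 fell (log2 fold changes -1.15 and -1.56, adjusted p = 2.14e-06 and 5.16e-07), and Cd74, the invariant chain that escorts class II, fell with an overlap at sham replicate 1 (log2 fold change -0.95 ± 0.19, adjusted p = 0.00119). Mgl2, a lectin of dendritic cells and macrophages, was at 7.83, 7.76, 8.49 and 14 CPM in sham and 0.692, 0.352, 0.668 and 1.69 CPM in CLP mice (log2 fold change -3.48 ± 0.44, adjusted p = 1.95e-06). Clec10a, its relative, fell by 1.61 (adjusted p = 0.0255) but lost its call without sham replicate 1 or 4 or CLP replicate 1, 2 or 3. The list's fall was smallest in CLP replicate 4, whose mean shift was -0.26 against -0.55 to -0.75 in the other 3.

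**Figure D2:**
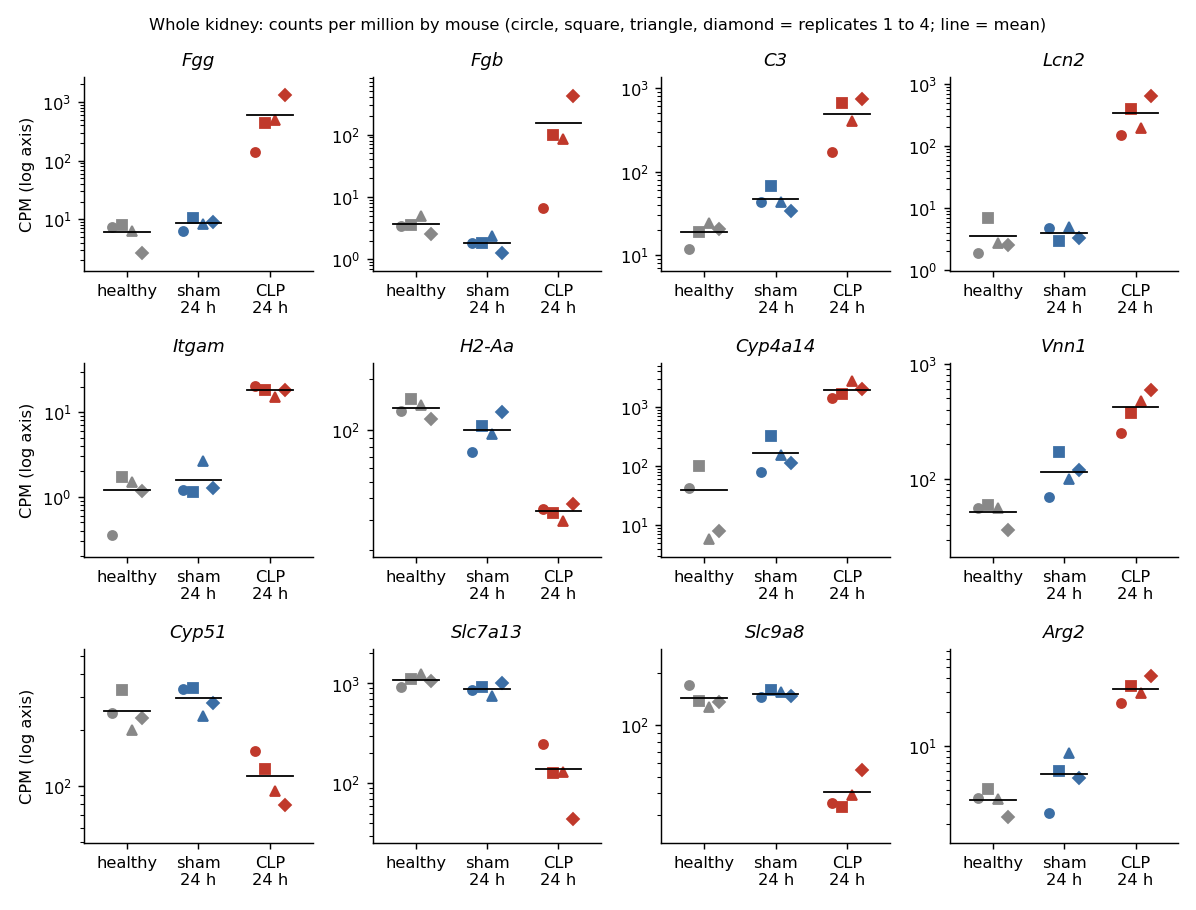
Each panel plots 1 gene, with CPM on a log axis against the healthy, sham 24 h and CLP 24 h groups, 4 mice in each. Marker shape gives the replicate and the line is the mean. CLP replicate 4 (diamond) is the highest CLP mouse for Fgg, Fgb, C3, Lcn2, H2-Aa, Vnn1, Slc9a8 and Arg2 and the lowest for Cyp51 and Slc7a13.

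A mixed list of PPAR-alpha targets and fatty acid oxidation genes shifted as a whole. PPAR-alpha is the nuclear receptor that turns on fatty acid oxidation in fasting. All 33 tested members had a positive log2 fold change, 15 rose and none fell, and the median was 0.65. The other 18 did not pass, Acaa2 and Acadvl being those of highest CPM. With any 1 library left out, 10 to 17 rose, and 12 did without CLP replicate 4. Cyp4a10, a fatty acid omega-hydroxylase, went from 420.3, 797, 705 and 764 CPM to 1553, 2195, 2568 and 2907 CPM (log2 fold change 1.78 ± 0.34, adjusted p = 0.00173). Its relative Cyp4a14, named after its values were seen, went from 79.1, 328, 154 and 114 CPM to 1434, 1664, 2716 and 2002 CPM (log2 fold change 3.53 ± 0.79, adjusted p = 0.00822). The Cyp4a genes are close copies of each other, and reads may have been split among them.

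Other members that rose were the acyl-CoA thioesterases Acot1 (log2 fold change 1.59, adjusted p = 0.000277) and Acot2 (log2 fold change 1.64, adjusted p = 4.93e-05), the isomerase Eci1 (log2 fold change 1.23, adjusted p = 5.96e-05) and the pantetheinase Vnn1 (log2 fold change 1.85, adjusted p = 6.15e-05). Vnn1 was at 70.6, 173, 101 and 120.5 CPM in sham and 249, 370.4, 479 and 585 CPM in CLP mice. Plin2, which coats lipid droplets, was at 92.9, 185, 85.5 and 115 CPM in sham and 149.7, 328, 300.2 and 1676 CPM in CLP mice. The groups overlapped, CLP replicate 4 was far above the rest, and without it the log2 fold change was 1.12 in place of 2.36. The mean of Cyp4a14 was 38.8 CPM in healthy mice, 169 CPM in sham mice and 1954 CPM in CLP mice, so the sham mean also exceeded the healthy mean. Of 38 nuclear-encoded respiratory chain subunits 1 fell, Cycs, and none rose, with a median of -0.12. In this list 7 of the 38 had a positive log2 fold change. Its mean shift was -0.62 in CLP replicate 4, against -0.12 to 0.13 in the other CLP mice. Cycs was named after its value was seen, and no gene of the list passed without CLP replicate 4 or 3 or sham replicate 2, 3 or 4, while 2 fell without CLP replicate 1. None of 8 mitochondrially encoded transcripts passed by edgeR or DESeq2, and 3 had an unadjusted p under 0.05.

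Cholesterol synthesis genes lay lower as a list: 22 of 24 had a negative log2 fold change, 5 fell and none rose (4 to 6 fell with any 1 library left out), and the median was -0.46. Cyp51, lanosterol demethylase, was at 334, 338, 237 and 280.1 CPM in sham and 154, 124, 93.8 and 79.5 CPM in CLP mice, lowest in replicate 4 (log2 fold change -1.39 ± 0.17, adjusted p = 1.68e-06). Hmgcs1, the cytosolic synthase that feeds the sterol pathway, was at 509.8, 578, 674 and 562 CPM in sham and 413, 362, 369 and 188 CPM in CLP mice (log2 fold change -0.80 ± 0.17, adjusted p = 0.00219). Msmo1, a sterol methyl oxidase, fell too (log2 fold change -0.98, adjusted p = 0.0137) but was lost without sham replicate 1.

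Proximal tubule solute transporters changed in both directions, with 4 of 25 lower and 3 higher, and a median of -0.20. Without sham replicate 1 or 4 or CLP replicate 3, 1 was higher. Without CLP replicate 4, 3 were lower, 4 were higher and the median was -0.064. The list's mean shift was -0.024, -0.25, -0.033 and -0.80 in CLP replicates 1 to 4. Slc7a13, an amino acid exchanger of the late proximal tubule, was at 862, 923, 748 and 1019 CPM in sham and 249.8, 128, 129 and 44.5 CPM in CLP mice. CLP replicate 4 was the lowest and CLP replicate 1 the highest of the CLP mice, and every CLP mouse was below every sham mouse (log2 fold change -2.69 ± 0.30, adjusted p = 1.95e-06). The sodium-phosphate cotransporter genes Slc34a1 and Slc34a3 fell (log2 fold change -0.99 ± 0.16, adjusted p = 0.000113, and log2 fold change -1.42 ± 0.25, adjusted p = 0.000378). Slc34a1 was at 3679, 4100, 4105 and 3685 CPM in sham and 2226, 1866, 2670 and 1099 CPM in CLP mice. The sodium-sulphate cotransporter gene Slc13a1 instead rose, from 127, 159, 143 and 164 to 228, 333, 381 and 492 CPM, and here too replicate 4 was the most extreme (log2 fold change 1.27 ± 0.16, adjusted p = 1.96e-06). Slc2a2, the basolateral glucose carrier, rose little and was lost without sham replicate 1, 2 or 4 or CLP replicate 3 (log2 fold change 0.49 ± 0.13, adjusted p = 0.0186).

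Of 25 organic anion and cation transporters, 6 fell and 1 rose, and 10 fell without CLP replicate 1. Slc47a1, which secretes cations into urine, was at 415, 456, 451 and 491 CPM in sham and 303, 247, 277 and 144 CPM in CLP mice (log2 fold change -0.90 ± 0.17, adjusted p = 0.00057). Slc22a7, Slco1a1 and Slc22a2, carriers of organic anions and cations, fell (log2 fold changes -1.08, -1.19 and -0.64, adjusted p = 0.00375, 0.00536 and 0.008). Slc22a8, the organic anion transporter OAT3, fell by 0.84 (adjusted p = 0.0395) and was lost without sham replicate 1, 2 or 4 or CLP replicate 2 or 4. The transporter lists moved unequally between mice: the mean shift over the 25 organic ion transporters was 0.062, -0.38, -0.27 and -1.06 in CLP replicates 1 to 4. Without CLP replicate 4, 4 of them fell, none rose, and the median was -0.075 in place of -0.25.

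Among 33 proximal tubule enzymes and other markers, 8 fell and 1 rose, with a median of -0.31 (-0.17 without CLP replicate 4). Mep1b, a brush border metalloprotease, was at 210.3, 189, 153 and 202 CPM in sham and 59, 77.7, 59.9 and 31.2 CPM in CLP mice (log2 fold change -1.73 ± 0.19, adjusted p = 4.46e-07). Miox, which breaks down inositol, fell by 1.28 (adjusted p = 8.67e-06). Kap, the androgen-regulated kidney protein, was at 34689, 41587, 40754 and 42986 CPM in sham and 20116, 25262, 27303 and 23681 CPM in CLP mice (log2 fold change -0.73 ± 0.12, adjusted p = 9.78e-05). Acsm2 and Cyp7b1 fell (log2 fold changes -0.70 and -0.95, adjusted p = 0.000127 and 0.000668). The exception was Cyp2d9, a male-enriched cytochrome P450, which went from 116, 242, 195 and 224 CPM to 325, 538, 666 and 995 CPM (log2 fold change 1.7 ± 0.28, adjusted p = 0.000331). Of 14 genes of the megalin and cubilin endocytic system, the lysosomal proteases Ctsl and Ctsb rose (1.27 and 0.59, adjusted p = 0.000177 and 0.000326), whereas the megalin gene Lrp2 did not pass (log2 fold change -0.46, adjusted p = 0.685). Amn, which anchors cubilin in the membrane, fell but was lost without sham replicate 3, sham replicate 4 or CLP replicate 4 (log2 fold change -0.54 ± 0.14, adjusted p = 0.018).

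Of 26 tubular injury and repair genes, 8 rose and none fell, with a median of 0.86. The count was 4 without sham replicate 2, 5 without sham replicate 3 or 4 or CLP replicate 2, and 6 without CLP replicate 4. Spp1, osteopontin, was at 205, 139, 169 and 119.8 CPM in sham and 415, 570.4, 409 and 994 CPM in CLP mice (log2 fold change 1.92 ± 0.30, adjusted p = 0.000187). Timp1, an inhibitor of matrix proteases, went from 0.964, 0.926, 0.708 and 1.02 CPM to 6.81, 5.4, 9.18 and 14.2 CPM (log2 fold change 3.28 ± 0.52, adjusted p = 6.73e-05). Havcr1, the injury marker KIM-1, named after its values were seen, was at 2.77, 1.16, 1.11 and 0.513 CPM in sham and 1.5, 6.1, 4.67 and 30.5 CPM in CLP mice, and CLP replicate 1 fell within the sham range. Sox9, a transcription factor of repairing tubule cells, was at 2.89, 2.55, 2.83 and 2.69 CPM in sham and 2.88, 6.69, 4.17 and 55.6 CPM in CLP mice. Without CLP replicate 4 their log2 fold changes were 1.55 and 0.74 in place of 2.93 and 2.65, and neither passed. Sox9 also lost its call without any 1 of the 4 sham mice, and Havcr1 without sham replicate 2, 3 or 4 or CLP replicate 2.

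**Figure D3:**
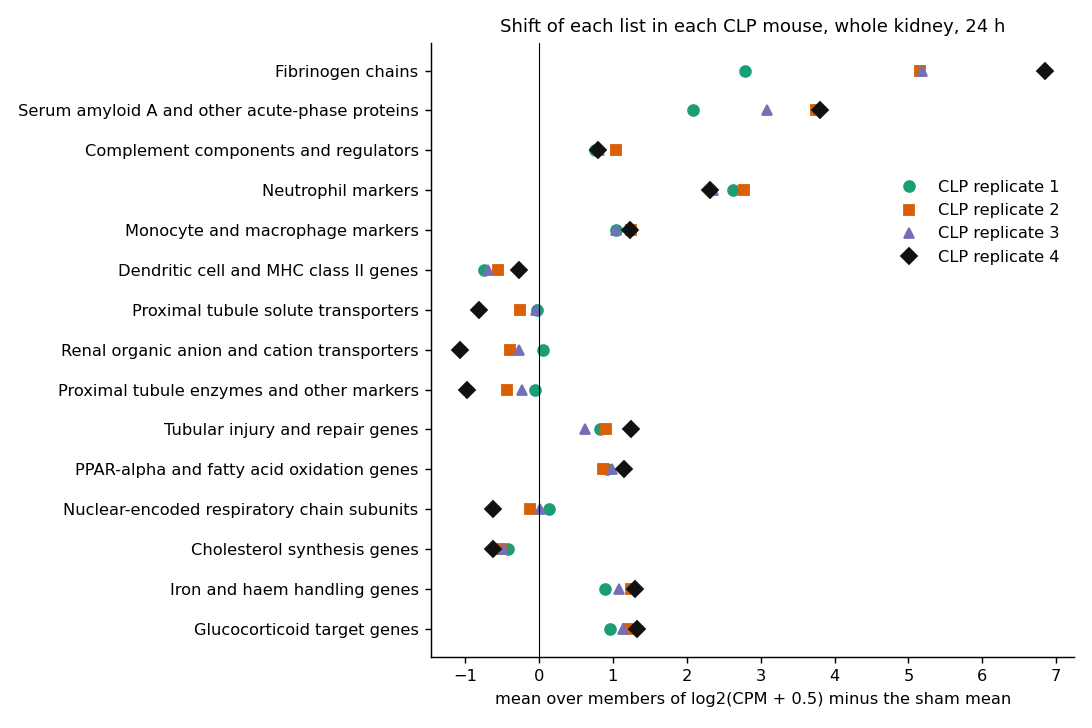
The horizontal axis gives, for each list, the mean over its tested members of log2(CPM + 0.5) minus the sham mean, in each of the 4 CLP mice. For the fibrinogen chains the shift runs from 2.79 in CLP replicate 1 to 6.85 in replicate 4. For the organic ion transporters it runs from 0.062 to -1.06. For the neutrophil, macrophage, cholesterol, and PPAR-alpha and fatty acid oxidation lists the 4 mice lie close together.

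Further down the nephron, Slc12a1, the sodium-potassium-chloride cotransporter of the loop of Henle, was at 612, 571, 524 and 665 CPM in sham and 459, 406, 274 and 377 CPM in CLP mice (log2 fold change -0.65 ± 0.17, adjusted p = 0.0158), a call lost without sham replicate 4 or CLP replicate 3. Fxyd2, a regulator of the sodium pump, fell (log2 fold change -0.59 ± 0.15, adjusted p = 0.0131). These were the 2 lower genes of 14 in the loop list (5 without CLP replicate 1, 1 without sham replicate 4 or CLP replicate 3), and Umod, which codes for uromodulin, did not pass (log2 fold change 0.10, adjusted p = 0.854). Of 29 distal tubule and collecting duct genes, 2 rose and 1 fell, where 3.04% of all tested genes rose and 2.24% fell. Sgk1, a kinase that aldosterone and glucocorticoids induce, was at 32.3, 33.1, 32.1 and 31 CPM in sham and 62.3, 60.9, 73.6 and 138 CPM in CLP mice (log2 fold change 1.38 ± 0.27, adjusted p = 0.00181). The calcium-binding protein gene S100g rose and the pump regulator Fxyd4 fell (log2 fold changes 0.68 and -0.63, adjusted p = 0.0158 and 0.0143), S100g being lost without sham replicate 2 or 4 or CLP replicate 4, and Fxyd4 without sham replicate 3 or CLP replicate 3.

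In arginine and polyamine metabolism 2 of 17 genes rose, the arginases Arg1 and Arg2, and 1 fell, Odc1. Arg2, the mitochondrial arginase that makes ornithine, was at 2.53, 5.91, 8.69 and 5.13 CPM in sham and 24.1, 33.8, 29.4 and 42 CPM in CLP mice (log2 fold change 2.52 ± 0.26, adjusted p = 8.99e-08). Odc1, which turns ornithine into putrescine, was at 152, 174, 368 and 251 CPM in sham and 60.8, 60.8, 54.1 and 38 CPM in CLP mice (log2 fold change -2.15 ± 0.27, adjusted p = 6.90e-06). Neither gene overlapped between groups. In the NAD and tryptophan list 3 of 20 fell, where 2.24% of all tested genes did. They were Acmsd, Haao (log2 fold change -0.53 ± 0.14, adjusted p = 0.0192) and Afmid, arylformamidase (log2 fold change -1.47 ± 0.28, adjusted p = 0.000729). Acmsd diverts the pathway from NAD (log2 fold change -1.39 ± 0.32, adjusted p = 0.008). Haao was lost without sham replicate 2 or 4 or CLP replicate 1 or 4. Nampt, of the NAD salvage route, rose by 0.61 (adjusted p = 0.0276) and was lost without sham replicate 1, 2 or 3 or CLP replicate 1, 2 or 3. Its CLP values were 79.2, 86, 84.8 and 40 CPM, the last of these just below the lowest sham mouse.

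Metal handling genes rose without exception among those called. In the metallothionein and zinc list 3 of 9 rose. Mt2 was at 71.8, 75.3, 89.4 and 69.1 CPM in sham and 148, 250.4, 304 and 560.4 CPM in CLP mice (log2 fold change 2.05 ± 0.25, adjusted p = 4.78e-06), Mt1 rose by 1.24 (adjusted p = 0.00348), and the zinc importer Slc39a10 by 0.87 (adjusted p = 0.00534). In the iron and haem list 9 of 21 rose, but 4 without sham replicate 1 and 5 without sham replicate 4. The list includes Cp, Hp and Lcn2 already described, the ferritin heavy chain Fth1 (log2 fold change 0.48, adjusted p = 0.0153), transferrin Trf (log2 fold change 1.42, adjusted p = 0.0199) and haem oxygenase Hmox1 (log2 fold change 1.51, adjusted p = 0.035). Fth1 lost its call without sham replicate 1 or CLP replicate 2 or 3, Trf without sham replicate 1, 3 or 4 or CLP replicate 4, and Hmox1 without sham replicate 1, 2, 3 or 4 or CLP replicate 4. Hmox1 was at 11.4, 11.8, 16.7 and 42.1 CPM in the CLP mice, and its log2 fold change without replicate 4 was 0.88. Of 24 antioxidant genes under NRF2, 3 rose, where 3.04% of all tested genes did. Nqo1, a quinone reductase, was at 24.4, 30.5, 25.5 and 23.8 CPM in sham and 57.1, 48.3, 47.6 and 37.2 CPM in CLP mice (log2 fold change 0.87 ± 0.16, adjusted p = 0.000477), and Srxn1 rose by 0.75 (adjusted p = 0.00172).

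Of 17 glucocorticoid target genes, 7 rose and none fell, and 6 to 7 rose with any 1 library left out. Zbtb16, a zinc finger repressor, was at 0.602, 1.51, 2.43 and 2.82 CPM in sham and 5.31, 13.5, 19 and 31.3 CPM in CLP mice (log2 fold change 3.21 ± 0.52, adjusted p = 0.000293). Fkbp5, a chaperone that restrains the glucocorticoid receptor, rose from 36.9, 32, 53.7 and 35.1 to 66.6, 95.4, 135 and 76 CPM (log2 fold change 1.24 ± 0.24, adjusted p = 0.00119). Lcn2, Mt2, Sgk1 and Nfkbia are members of this list as well as of those above. Cdkn1a, which codes for the cell cycle inhibitor p21, rose by 1.96 (adjusted p = 0.00861) and was lost without CLP replicate 4.

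The counts for vessel and stromal lists are likewise to be set beside the 5.28% of all tested genes. None of 21 pan-endothelial genes passed by edgeR and 1 did by DESeq2, with a median of 0.11 and 4 at an unadjusted p under 0.05, and Pecam1 and Kdr had log2 fold changes of 0.42 (adjusted p = 0.145) and -0.33 (adjusted p = 0.192). Of 23 angiopoietin and VEGF pathway genes 3 rose and 2 fell. Vegfd was at 15.4, 17.1, 11.3 and 10.9 CPM in sham and 24.4, 30.1, 25.9 and 26.7 CPM in CLP mice (log2 fold change 0.97 ± 0.21, adjusted p = 0.00338), and the endothelial proteoglycan gene Esm1 fell (log2 fold change -0.92 ± 0.20, adjusted p = 0.00265). The vasoactive peptide genes Edn1 and Adm rose (log2 fold change 1.92 ± 0.46, adjusted p = 0.00777, and log2 fold change 1.17 ± 0.28, adjusted p = 0.00892), Adm being lost without sham replicate 1. Of 18 fibroblast and matrix genes 2 rose (4 without CLP replicate 1). Dcn, the collagen-binding proteoglycan decorin, was at 113, 130.2, 79.8 and 86.5 CPM in sham and 217, 244, 201 and 212 CPM in CLP mice (log2 fold change 1.09 ± 0.18, adjusted p = 8.21e-05), and Lox, which crosslinks collagen, rose by 1.75 (adjusted p = 0.000317). Of 18 podocyte genes 2 fell, Col4a4 and Tcf21 (log2 fold changes -0.49 and -0.91, adjusted p = 0.0145 and 0.0458). Col4a4 lost its call without sham replicate 3, and Tcf21 without sham replicate 1 or 3 or CLP replicate 2, 3 or 4. No member passed by edgeR among 15 smooth muscle, 10 inflammasome, 19 circadian clock, 25 stress response and 11 erythrocyte and platelet genes. At an unadjusted p under 0.05 there were 4, 5, 3, 2 and 1, and DESeq2 called 1, in the clock list.

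Markers of tissues that could be carried along with a kidney were checked in the same libraries. Of 15 hepatocyte markers 4 rose: Apoc3, Fgb and the close copies Serpina1a and Serpina1b. Their log2 fold changes were 2.52 (adjusted p = 1.30e-06), 6.36 (adjusted p = 3.03e-05), 1.54 (adjusted p = 0.00173) and 1.55 (adjusted p = 0.000232). Alb, which codes for albumin and was named after its values were seen, was at 4.34, 4.17, 2.53 and 2.44 CPM in sham and 1.5, 2.93, 5.51 and 2.11 CPM in CLP mice (log2 fold change -0.19, adjusted p = 0.928). Cps1 was at 0 in all 8 libraries, Ahsg at 0 in 5 and Mup3 at 0 in 6. Summed over 6 defining hepatocyte genes the level was 168 to 332 CPM in sham and 134 to 279 CPM in CLP mice, nearly all of it Ttr, which did not pass (log2 fold change -0.44, adjusted p = 0.532). Adipocyte genes differed between mice in both groups: Adipoq and Plin1 summed to 1.42 to 153 CPM in sham and 18.9 to 101 CPM in CLP mice. The part of other tissues in any result was otherwise not tested.

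Several of the strongest falls were in genes outside the lists. The 12 lowest log2 fold changes, under the same rule as for the rises, belonged to Mgl2, Kif20b, Mfsd2a, Ldc1, Slc7a13, Pde6a, Bcat1, Odc1, Cyp2j13, Slc9a8, Arhgef39 and Myo5a. Slc9a8, a sodium-proton exchanger of the proximal tubule brush border, had the smallest adjusted p of all 14936 genes. It was at 145, 159.7, 157 and 147 CPM in sham and 35, 33.2, 39.2 and 54.9 CPM in CLP mice (log2 fold change -1.91 ± 0.15, adjusted p = 5.19e-10), and lies at chr2:167421712-167477000 (GRCm38). Myo5a, an unconventional myosin that carries vesicles, was at 45.4, 49, 58.4 and 59.6 CPM in sham and 10.6, 15.8, 15.5 and 16.1 CPM in CLP mice (log2 fold change -1.87 ± 0.19, adjusted p = 8.99e-08). Cyp2j13, an epoxygenase-family cytochrome P450, went from 167, 207, 282 and 212 to 59.3, 55.9, 76.1 and 33.8 CPM (log2 fold change -1.95 ± 0.19, adjusted p = 7.42e-08).

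Bcat1, which transfers the amino group of branched-chain amino acids, was at 33.7, 32.2, 50.5 and 41.6 CPM in sham and 7.73, 11.2, 3.5 and 10.1 CPM in CLP mice (log2 fold change -2.27 ± 0.29, adjusted p = 3.98e-06). Kif20b, a mitotic kinesin, fell from 7.47, 17.1, 18.4 and 10 to 1.15, 2.7, 1.33 and 0.702 CPM (log2 fold change -3.13 ± 0.38, adjusted p = 1.54e-06). Kif20b is counted in the cell cycle list, where 2 of 30 genes fell and none rose (2.24% of all tested genes fell). Ldc1 was at 85.9, 43.4, 119 and 104 CPM in sham and 16.5, 18.2, 5.67 and 7.3 CPM in CLP mice (log2 fold change -2.86 ± 0.32, adjusted p = 1.52e-06), and Pde6a and Arhgef39 fell (log2 fold changes -2.54 and -1.90, adjusted p = 2.59e-05 and 3.13e-05).

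Whether the change with CLP at 24 h differed from that at 4 h was tested as a difference of the CLP effects, each time having its own sham mice. It differed for 275 of 14936 genes (1.84%), being higher at 24 h for 125 (0.837%) and lower for 150 (1.00%). At 4 h, 335 genes (2.24%) had changed, 252 higher (1.69%) and 83 lower (0.556%). Of the 454 genes higher at 24 h, 76 were also higher at 4 h, which is 16.7% of the 24 h genes and 30.2% of the 252 of 4 h. Of the 335 lower genes, 7 were also lower at 4 h (2.09%, and 8.43% of the 83 of 4 h).

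Genes are ranked here among those that passed, averaged 5 CPM or more over the 16 libraries of both times and are not predicted genes. The 5 of largest positive difference were Fgb, Lrg1, Fgg, Kcnip2 and C3 (5.81, 4.09, 4.03, 3.46 and 3.29 on the log2 scale). C3 had not passed at 4 h (log2 fold change 0.10, adjusted p = 0.994), and its difference was 3.29 ± 0.56, adjusted p = 0.00187. Kcnip2, a potassium channel subunit, was at 1.21, 3.82, 0.91 and 1.41 CPM in sham and 10, 24.5, 28.4 and 26.8 CPM in CLP mice at 24 h, with no call at 4 h (3.46 ± 0.77, adjusted p = 0.0129). Fga and C4b differed too (2.98 and 2.53). Cx3cr1 changed sign: it was lower in CLP mice at 4 h (log2 fold change -1.74, adjusted p = 1.09e-05) and higher at 24 h, a difference of 2.72 ± 0.29, adjusted p = 1.41e-06. The neutrophil integrin gene Itgam differed by 2.47 ± 0.56, adjusted p = 0.0143.

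Among the 5 genes of largest negative difference in the same ranking, Mfsd2a, a lipid transporter, was higher in CLP mice at 4 h (log2 fold change 2.65, adjusted p = 0.00371) and lower at 24 h. At 24 h it was at 31.1, 21.2, 51.5 and 135 CPM in sham and 9.92, 9.62, 6.01 and 4.63 CPM in CLP mice, and the difference of the effects was -5.61 ± 0.74, adjusted p = 0.000141. Mgl2, Ldc1, Kif20b and Syn3 followed (-3.26, -2.96, -2.96 and -2.94). For the class II genes H2-Aa, H2-Ab1 and H2-Eb1 the differences were -1.87, -1.5 and -1.78, and none had passed at 4 h. Of the tubule genes, Slc7a13 (-2.62 ± 0.41, adjusted p = 0.000565), Odc1 (-2.12 ± 0.37, adjusted p = 0.00171), Slc34a1 (-1.03 ± 0.23, adjusted p = 0.0109) and Cyp51 (-1.66 ± 0.24, adjusted p = 0.000102) had not passed at 4 h, and their effects at 24 h were lower. Of the 33 PPAR-alpha and fatty acid oxidation genes, none had passed at 4 h, and 5 had a higher effect at 24 h, Vnn1 among them (difference 1.93).

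Against 72 h, the CLP effect differed for 76 genes (0.509%), being higher at 24 h for 60 (0.402%) and lower for 16 (0.107%). This count depended on CLP replicate 1: it was 156 without that mouse and 46 without CLP replicate 3. At 72 h, 581 genes (3.89%) had changed, 260 higher (1.74%) and 321 lower (2.15%). Of the genes higher at 24 h, 132 were also higher at 72 h (29.1%, and 50.8% of the 260 of 72 h), and of the lower genes 147 were also lower (43.9%, and 45.8% of the 321 of 72 h).

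In the same ranking against 72 h, Fga had the largest positive difference (3.68 ± 0.67, adjusted p = 0.00824), its effect at 72 h being 1.08 (adjusted p = 0.297). The differences of Fgg and Fgb did not pass the same edgeR test (3.97 and 5.16, adjusted p = 0.052 and 0.0536). Acsm3, a medium-chain acyl-CoA synthetase, did not pass at 24 h (log2 fold change -0.38, adjusted p = 0.413) but was lower in CLP mice at 72 h (log2 fold change -3.17, adjusted p = 2.30e-10), a difference of 2.79 ± 0.31, adjusted p = 6.38e-06. Slc23a3 showed the same pattern (2.25), with 0.81 (adjusted p = 0.0928) at 24 h. Psat1, of serine synthesis, was at 25.5, 33.7, 42.4 and 30.6 CPM in sham and 73.4, 153, 216 and 191 CPM in CLP mice at 24 h and did not pass at 72 h (difference 2.23 ± 0.33, adjusted p = 0.000334). Vnn1 and Acot1 of the PPAR-alpha and fatty acid oxidation list differed as well (2.21 and 1.72). In that list 6 of the 33 genes had a higher effect at 24 h. Arg2 and Nqo1 had a higher effect at 24 h than at either other time (1.80 and 1.06 against 72 h, 1.55 and 1.02 against 4 h).

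Some tubule genes fell further by 72 h. Slc22a7 and Slco1a1 had log2 fold changes of -3.14 and -3.03 at 72 h, differing from 24 h by 2.05 and 1.83. Kap fell further at 72 h (log2 fold change -1.7, adjusted p = 6.73e-11), the difference being 0.97 ± 0.17, adjusted p = 0.00223. The 5 largest negative differences in that ranking were those of Rdh16f2, S100a8, Tmem207, Tmem252 and Btc (-3.08, -2.64, -1.94, -1.74 and -1.74). S100a8 rose to a log2 fold change of 6.78 at 72 h. The sterol gene Cyp51 had a lower effect at 24 h (difference -1.15) and did not pass at 72 h.

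**Figure D4:**
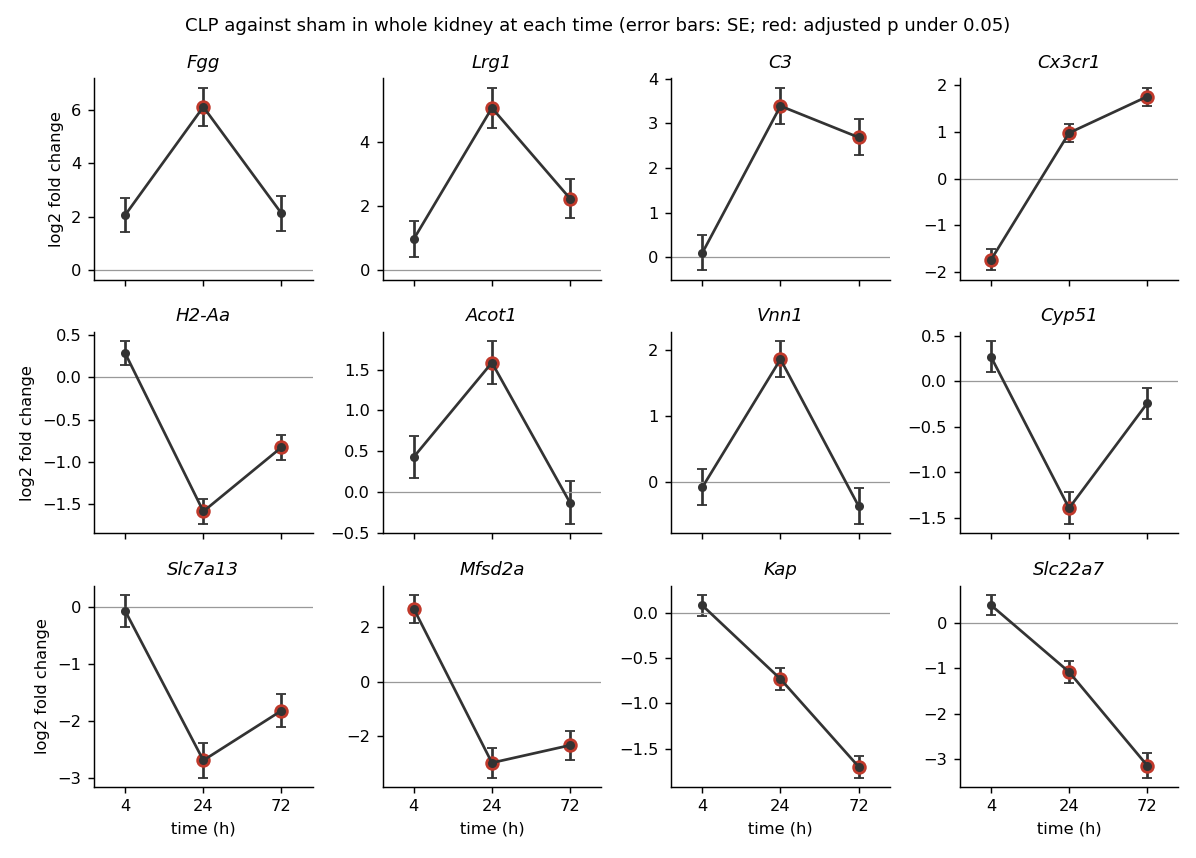
Each panel gives the log2 fold change of 1 gene in CLP against sham mice at 4, 24 and 72 h in whole kidney. The error bar is the SE derived from the F statistic, and red marks an adjusted p under 0.05. By point estimate, Fgg, Lrg1, Acot1 and Vnn1 are highest and H2-Aa, Cyp51 and Slc7a13 lowest at 24 h. By edgeR's test of the difference, 24 h against 72 h did not pass for Fgg, Lrg1, H2-Aa or Slc7a13 (adjusted p = 0.052, 0.176, 0.101 and 0.566). For Acot1, 24 h against 4 h did not pass (adjusted p = 0.119). Cx3cr1 and Mfsd2a change sign after 4 h, and Kap and Slc22a7 go on falling to 72 h.

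The microdissected compartments at 24 h came from the same 8 mice by the numbers in the library titles, with 4 libraries per group in each. They are therefore not independent of the whole-kidney libraries. They are given as values with no test, each compartment scaled on its own. In the peritubular capillary samples, which lie between tubules, Fgg was at 466 CPM on average in CLP mice (range 13.5 to 928) and at 0 to 0.489 CPM in sham mice. In glomeruli Fgg ranged over 51.5 to 158 CPM in CLP mice, and it was listed at 0 in all sham glomeruli and in all 8 arteriole samples. In venules Fgg averaged 349 CPM in CLP mice (65.2 to 974.5) against 2.37 CPM in sham mice (0 to 9.4). Fgb in arterioles averaged 11.8 CPM in CLP (0 to 47.2) and 0.73 CPM in sham mice (0 to 2.92), and in each group a single library held all of it. Lcn2 ranged over 227 to 461 CPM in CLP glomeruli and 0 to 29.9 CPM in sham glomeruli. In peritubular capillary samples it ranged over 0 to 509 CPM in CLP mice and was listed at 0 in all sham mice. Lcn2 averaged 126 CPM in CLP arterioles against 0.691 CPM in sham, and 164 against 3.5 CPM in venules. Saa3 averaged 327 CPM in CLP arterioles (55 to 692) against 2.25 CPM in sham (0 to 8.91). Cyp4a14 averaged 3376 CPM in CLP peritubular capillary samples against 312 CPM in sham, and 15.6 against 22.9 CPM in arterioles. H2-Aa averaged 33.6 CPM in CLP glomeruli (range 15.7 to 72.6) against 183 CPM in sham (158 to 211), with no overlap. Its groups did not overlap in arterioles either, at 66.2 to 111 CPM in CLP and 188 to 381 CPM in sham mice. They overlapped in venules (43.1 to 184 against 180.1 to 364 CPM) and in peritubular capillary samples (0 to 164 against 4.4 to 109 CPM, means 55.1 and 60.3). Kap, a tubule transcript, averaged 7540 CPM in sham glomeruli and 54339 CPM in sham peritubular capillary samples, and the part of tubule RNA in the other values was not tested.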

How the data were processed

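RNA of whole kidney was sequenced as 3′ tag libraries, per the labels' protocols. The authors deposited a table of raw read counts per gene for 140 libraries, of which the 28 whole-kidney libraries were used for the fit. Per the submitters' processing notes, the tools were HTSeq 0.13 and featureCounts, STAR 2.7, SAMtools 1.9, MultiQC 1.7 and FastQC 0.11.8, with no roles or order given. They list the builds GRCm38.p6 and GRCm39. Which build and counter made the table is not given in the sources used here, so coordinates printed here come from GENCODE M21 and RefSeq on GRCm38.

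Groups came from the labels. Counts were filtered with edgeR's default filter (14936 of 34255 genes kept), scaled by TMM and tested with the edgeR 4.0.16 quasi-likelihood test in R 4.3.3. All 28 libraries entered 1 fit, which shares the estimate of the spread, and p-values were adjusted by Benjamini-Hochberg over all tested genes. The fit gives no SE, so each SE was derived as the absolute log2 fold change over the square root of the F statistic. CPM are TMM-scaled and carry no pseudocount, except that shifts per mouse use log2(CPM + 0.5). The script was tested on simulated counts. DESeq2 1.42.0, other scalings, no filter, the 8 libraries alone, the replicate block and leaving out each library were tried.

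Named genes were the 12 highest and 12 lowest called genes averaging 5 CPM or more with groups apart, up to 6 called members per list by adjusted p with up to 2 uncalled members of highest CPM, the coagulation list members, and up to 5 per direction for each time difference. Some genes the rule takes are not reported here, and exceptions are stated where they occur. The genes, lists and comparisons were chosen with earlier results of these data known. Totals at 24 h were 6202580 to 10373287 counts per library, and bounds from 3 counts cover counting error only. No 2 libraries held the same data (lowest chi-square per degree of freedom 5.14).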

Additional observations from a re-analysis of the deposited data

Results flagged for a closer look

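Among the 162 genes named or listed for the comparison at 24 h, 324 groups of 4 mice were checked for a mouse that stood far from the other 3 (a gap above 0.829 of the group's range). Such a mouse was found in 20 groups, and chance gives about 1 in 20. CLP replicate 4 was the mouse in 8 of them: it was high for Plin2 (1676 CPM), Sgk1 (138 CPM), Sox9 (55.6 CPM), Cebpb (30.8 CPM), Havcr1 (30.5 CPM) and Clec10a (2.11 CPM), and low for Nampt (40 CPM) and Tmem252 (9.55 CPM). CLP replicate 1 was high for Esm1 (34.2 CPM) and Plat (21.2 CPM) and low for Myo5a (10.6 CPM), and CLP replicate 2 was high for Tbxas1 (10.1 CPM). Among sham mice, replicate 1 was low for Cd74 (46.6 CPM) and high for Saa2 (0.241 CPM, the other 3 being at 0). Sham replicate 2 was high for Fpr1 (0.695 CPM), replicate 3 for Slc2a2 (157 CPM), Fxyd4 (67.7 CPM) and Itgam (2.63 CPM), and replicate 4 for Mgl2 (14.0 CPM) and Fcgr1 (1.92 CPM).

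The effect of CLP at 24 h differed from that at 4 h, by the test of the difference in edgeR, for 29 of the genes whose times are reported. On the log2 scale the effect was higher at 24 h by 5.81 for Fgb, 4.09 for Lrg1, 4.03 for Fgg, 3.46 for Kcnip2, 3.29 for C3, 2.98 for Fga, 2.72 for Cx3cr1, 2.53 for C4b, 2.47 for Itgam, 1.93 for Vnn1, 1.55 for Arg2, 1.45 for Psat1 and 1.02 for Nqo1. The 24 h minus 4 h difference was -5.61 for Mfsd2a, -3.26 for Mgl2, -2.96 for Ldc1, -2.96 for Kif20b, -2.94 for Syn3, -2.62 for Slc7a13, -2.36 for Tmem252, -2.12 for Odc1, -1.87 for H2-Aa, -1.78 for H2-Eb1, -1.68 for Tmem207, -1.66 for Cyp51, -1.5 for H2-Ab1, -1.47 for Slc22a7, -1.03 for Slc34a1 and -0.814 for Kap.

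Against 72 h, 17 of these genes differed. The effect was higher at 24 h by 3.68 for Fga, 2.79 for Acsm3, 2.25 for Slc23a3, 2.23 for Psat1, 2.21 for Vnn1, 2.05 for Slc22a7, 1.83 for Slco1a1, 1.80 for Arg2, 1.72 for Acot1, 1.06 for Nqo1 and 0.969 for Kap. The 24 h minus 72 h difference was -3.08 for Rdh16f2, -2.64 for S100a8, -1.94 for Tmem207, -1.74 for Btc, -1.74 for Tmem252 and -1.15 for Cyp51.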

How the results depend on the processing

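For CLP against sham at 24 h, the count of 789 called genes was 981 with DESeq2, 791 with RLE scaling, 807 with upper-quartile scaling, 792 with no filter on low counts, 912 with the replicate block and 295 with the 8 libraries fitted alone, which leaves fewer residual degrees of freedom. It ranged from 572 to 1012 with any 1 library left out. The count of 275 for 24 h against 4 h was 421 with DESeq2 and 167 with the libraries of those times alone, and 188 to 317 with any 1 left out. The count of 76 for 24 h against 72 h was 166 with DESeq2, 128 with no filter, 35 with the libraries alone and 119 with the replicate block, and 46 to 156 with any 1 left out (46 without CLP replicate 3, 156 without CLP replicate 1). The cause of these changes, the fall to 295 among them, was not tested. Of the alternatives run on single genes, 2 turned a direction, and neither gene had passed: Umod was -0.094 without CLP replicate 4 (range -0.094 to 0.23 with any 1 left out), and Alb 0.035 without CLP replicate 1 (range -0.62 to 0.035). Replicate numbers gave residual correlations of 0.468, 0.118, 0.054 and 0.158 between same-numbered sham and CLP libraries, and 3 of 4 CLP libraries correlated best with their own number, a hint from the data. The labels state no pairing and 1 correlation was under 0.1, so the numbers were not taken to pair the samples. The called genes Cebpb, Sox9 and Havcr1 did not pass with the block. At totals from 6202580 counts, genes near the floor of 3 counts per library could not be compared.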

Other observations

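Gene lists that the report does not describe gave the following counts at 24 h by edgeR's quasi-likelihood test, where 3.04% of all tested genes were higher and 2.24% lower. Of 21 genes of Toll-like and related receptors and their adaptors 5 rose and none fell. Besides the formyl peptide receptors Fpr1 and Fpr2, these were Cd14, the lipopolysaccharide co-receptor (log2 fold change 1.67), Tlr2 (1.64) and Irak3, a brake on the pathway (1.51). The count was 3 without CLP replicate 2, 3 with the 8 libraries fitted alone and 8 with the replicate block. Of 19 matrix metalloprotease and ADAMTS genes and their inhibitors 4 rose, Mmp8, Timp1, Mmp14 (1.05) and Adamts4 (2.81), and 2 fell, Mmp12 (-3.13) and Mmp13. The count of lower genes was 0 without sham replicate 1, CLP replicate 1 or CLP replicate 3. It was also 0 with the replicate block and with the 8 libraries fitted alone. It was 1 without sham replicate 3 or 4 or CLP replicate 2 or 4. Of 16 heat shock genes 2 fell, the chaperone genes Dnaja1 (-0.73) and Hspd1 (-0.39). That count was 1 with the replicate block and without sham replicate 2, 3 or 4 or CLP replicate 1, 2 or 4, and 0 with the 8 libraries fitted alone. Of 23 p53 target and cell death genes 2 rose, the cell cycle inhibitor gene Cdkn1a (1.96) and the survival gene Mcl1 (0.48), 1 of them without CLP replicate 4. Of 19 endothelial glycocalyx genes 2 rose, Hyal1 (0.75) and Sulf2 (0.71), and neither passed without sham replicate 4 or CLP replicate 2, while 1 did with the replicate block and without sham replicate 1, 2 or 3 or CLP replicate 4. The lone calls were a rise of Pcx, pyruvate carboxylase, among 24 glycolysis and gluconeogenesis genes (0.59), a fall of the keratin gene Krt15 among 8 urothelium markers, and a fall of Lpl, lipoprotein lipase, among 10 adipocyte markers (-0.82). No glycolysis gene passed without sham replicate 1, 3 or 4 or CLP replicate 4, and 2 did without sham replicate 2 or CLP replicate 1. No urothelium marker passed without any 1 of the 8 libraries other than CLP replicate 2, without which 3 did. With the 8 libraries fitted alone, none of the calls in these 5 lists remained.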
